A study of Drosophila melanogaster with 30 samples.

Results

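The fly genome holds many noncoding genes that carry only a CR number, and 260 of them were well represented in nuclear RNA of Drosophila melanogaster heads, from nuclei labelled as mushroom body, the brain structure in which olfactory memories form. These are the genes named CR and digits alone whose CPM (a gene's count as a share of the library total, on the usual CPM scale) averaged 10 or more over all 30 libraries. CR43481, CR43482 and CR45284 were left out. They were 260 of 2493 CR genes, and of 17559 genes in all. They were thus selected on their measured mean CPM, which is given as a description. It ran from 10.0 to 16160, with a median of 23.7. Just inside the limit lay CR43199 at 10.1, CR45789 at 10.1 and CR44843 at 10.0, and just outside it CR43430 at 9.74, CR45041 at 9.57 and CR43865 at 9.57. All 260 passed the filter on low counts, and none had a count of 0 in any library. A mean of at least 10 CPM was reached in each of the 10 groups by 184 of them, and 11 fell below the limit when some group was left out of the mean, 5 of them (CR43199, CR44843, CR45237, CR45312 and CR45789) without MB477 naive flies. CR45881 was another, kept in by the naive groups of MB131, MB131 with RNAi, MB477 with RNAi and flies without CsChrimson, and CR45955 by activated MB477 alone.

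Long noncoding RNAs are transcripts made by RNA polymerase II that carry no long open reading frame. Some lie antisense to a protein-coding gene, that is, on the opposite strand of the same stretch of DNA, and some are primary transcripts from which microRNAs are cut in the nucleus. Many stay in the nucleus, so nuclear RNA is a place to look for them, and only a few, such as the dosage compensation RNAs of the fly, have a known function. Most genes described here have no known role, and none is given below except for the microRNAs or the genes they overlap.

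Nuclei carrying a FLAG tag were purified from crosslinked fly heads, and polyadenylated nuclear RNA was sequenced. The study, whose title names targets of the histone demethylase Kdm4B, used line MB131, line MB477, both lines again under Kdm4B RNA interference (RNAi), and flies lacking CsChrimson, a light-gated cation channel. For the last the labels name no line, and which cells the lines drive is not stated in them. Each of these 5 backgrounds was sampled naive and after 5 min of optogenetic activation with red light and 10 min of rest (called activated here), which gave 10 groups of 3 libraries. The strain CS10 is given for most libraries, flies were kept at 25 °C, and ages are not stated in the labels used here. Whether the 3 libraries of a group stem from separate batches of flies is not stated, so p-values here reflect differences among libraries that may be purely technical. In bulk RNA, fewer cells of a type and less RNA per cell cannot be told apart.

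Total counts were 8291599 to 14344348 per library, with a median of 11458759, and the 260 genes held 3.68% to 4.16% of them, or 1.49% to 1.92% without the 2 most abundant. The 3 MB477 naive libraries lay apart from the rest: on the first principal component of all genes, with 26.8% of the variance, they were at 64.2 to 68.0 and the other 27 at -25.5 to 22.9. Any comparison with naive MB477 flies without RNAi, and the interaction in MB477, rests on them. Markers of the labelled tissue were present, with sNPF (a Kenyon cell neuropeptide) at 540.7 CPM in MB131 naive libraries, though at 66.8 in MB477 naive ones. In MB131 naive libraries the summed level of 14 Kenyon cell markers was 5459 to 5730 CPM. Sums of some other lists were higher, with 17 photoreceptor markers at 18058 to 18605 (the opsin ninaE alone 8563). For 8 fat body markers the sum was 11754 to 12118, and for 11 muscle markers 6921 to 7383. Other sums were lower, with 9 glia markers at 3037 to 3070, 5 blood cell markers at 124 to 142 and 6 cuticle markers at 164 to 187. The sum of 7 general neuron markers overlapped it, at 5405 to 5935. Sums over unlike lists do not measure the share of a tissue. Kdm4B averaged at most 1.13 CPM in any group, too little to check the RNAi labels.

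Of the 260 genes, 257 have an entry in the annotation of the dm6 assembly, 249 as noncoding RNA and 8 as pseudogenes. The largest class, with 199 genes, had exons that overlap exons of another gene on the opposite strand (antisense). A further 23 touched no other exon, 20 overlapped another gene on their own strand, and 7 hold an annotated microRNA. In 130 cases the gene lies inside the span of a protein-coding gene. They spread over 3L (66), 3R (54), 2R (45), X (43), 2L (41) and 4 (8). Most were short: the median exon length was 1199 bases, the range 214 to 10706, and 115 genes have a single exon. The strand setting of the counting is not stated in the sources at hand, so reads of an antisense gene and of its partner cannot be told apart, and overlapping genes and pseudogenes are uncertain throughout.

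A few genes carried most of the counts. CR42862, a spliced gene of 4 exons at 3L:224106-230964, plus strand, which overlaps CG33229 on its own strand, was counted at 12064 to 21166 CPM over the 30 libraries. It held 18572, 20104 and 19326 CPM in MB131 naive libraries and 14886, 14807 and 14521 in activated ones, so the groups did not overlap, and the change was -0.35 ± 0.03 (SE; edgeR adjusted p = 3.95e-16) on the log2 scale. Per kilobase of exon, however, CR45601 was the most abundant, at 7107 CPM per kb against 2946 for CR42862. CR45601 lies wholly opposite Yp1, a yolk protein gene. Next by mean CPM came CR31451 (a microRNA host, 1094 CPM), CR45894 (744, opposite Pdh, a retinal dehydrogenase of the eye) and CR34335 (671, without an annotation entry). They were followed by CR44969 (538), CR44509 (493, opposite the odorant-binding protein gene Obp56e), CR44095 (436, opposite the cystatin gene Cys), CR18854 (381) and CR45874 (343, opposite the ribosomal protein gene RpS9). Only 36 genes averaged 100 CPM or more.

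Levels differed between groups by modest factors for most genes. The highest group mean was a median of 2.09 times the lowest, and 141 genes spanned more than 2-fold and 32 more than 5-fold. The MB477 naive group was the highest of the 10 for 72 genes and the lowest for 90. Without that group 5 genes fall below the limit of the rule, so the 72 may partly reflect the selection. CR40469 spanned 36.4-fold, CR11538 30.5-fold, CR45237 24.9-fold and CR31912 24.4-fold. CR45237 is among the 260 only through its high MB477 naive group, so its range is part of how it was selected and is a description. At the other end, CR44021 (opposite the protein phosphatase gene Pp1alpha-96A) spanned 1.17-fold, with group means between 36.4 and 42.7 CPM, followed by CR45926, CR44368, CR44045 and CR42491 at 1.22 to 1.24-fold.

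Levels of antisense genes mostly followed those of the gene across from them. For 189 of the 199 a partner could be matched in the count table, taken as the most abundant gene with an exon opposite theirs (185 distinct partners). Over the 10 group means, taken as log2 of the mean CPM plus 0.5, Pearson's r between gene and partner had a median of 0.852. It was above 0.9 for 74 genes, 0.5 for 148, and was below 0 for 16. This is a description: both values come from the same libraries and, where counting did not use strand, possibly from the same reads. The median r was 0.688 for the 19 genes with under 25% of their exon bases overlapped, 0.798 for 30 genes at 25 to 50%, 0.871 for 47 at 50 to 75% and 0.878 for 93 at 75% or more. The closest pairs were CR45894 and Pdh (r = 0.999), CR44095 and Cys (0.998), CR11538 and Lsp2 (0.998), a larval storage protein gene, and CR44509 and Obp56e (0.996). The lowest r, -0.94, was that of CR44981, which lies inside sky (skywalker, a regulator of synaptic vesicle recycling), with 19.8% of its exon bases opposite exons.

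CR44981 held 3.17, 3.47 and 4.24 CPM in MB477 naive libraries and 18.2 to 35.3 in all 27 others, with no overlap. In naive MB477 against naive MB131 its log2 difference was -2.81 ± 0.17 (SE; edgeR adjusted p = 6.65e-27), while sky differed by 1.66 ± 0.11. Among comparisons without that group the pair passed in opposite directions in 1, activated MB477 against MB131 with RNAi, at -0.42 ± 0.13 (SE; edgeR adjusted p = 0.00594) for CR44981 and 0.77 ± 0.12 (SE; edgeR adjusted p = 5.74e-08) for sky.

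The 7 microRNA host genes form a class of their own. The RNA counted is that of the host, and mature microRNAs were not measured. CR46006, which holds mir-276a at 3L:10323501-10367450, plus strand (mir-276a acts in mushroom body neurons in olfactory behaviour), fell after activation in all 5 backgrounds. It held 130.1, 115 and 98.2 CPM in MB131 naive and 78.1, 72.2 and 76.8 in activated libraries, against 182, 165 and 175 and 109, 112 and 121 without CsChrimson. In both backgrounds every activated library was below every naive one, and the changes were -0.55 ± 0.08 (SE; edgeR adjusted p = 8.65e-07) and -0.58 ± 0.08 (SE; edgeR adjusted p = 1.2e-07). They were -0.51 ± 0.08 with RNAi in MB131, -0.27 ± 0.09 with RNAi in MB477 and -1.48 ± 0.08 in MB477, the last against the naive libraries that lie apart. The interaction of CsChrimson with activation was 0.03 ± 0.11 (SE; edgeR adjusted p = 0.935), which did not pass.

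CR43314, the host of mir-bft (bereft, known from mechanosensory bristles), changed with activation in directions that differed between backgrounds. In MB131 it held 94.7, 74.1 and 84.0 CPM naive and 60.1, 51.6 and 58.0 activated, a change of -0.53 ± 0.10 (SE; edgeR adjusted p = 5.77e-05). With Kdm4B RNAi the values were 65.3, 63.5 and 55.9 and 64.3, 74.1 and 69.0, which overlap, and the difference was 0.23 ± 0.10 (SE; edgeR adjusted p = 0.0917). The interaction of RNAi and activation was 0.76 ± 0.14 (SE; edgeR adjusted p = 0.000217). In MB477 with RNAi, the libraries rose from 21.2, 20.7 and 16.3 to 36.5, 42.1 and 31.6 CPM, without overlap, by 1.01 ± 0.12 (SE; edgeR adjusted p = 6.63e-09). Flies without CsChrimson showed a change of -0.43 ± 0.10 (SE; edgeR adjusted p = 0.000989).

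CR31044, the host of mir-279 and mir-996 (which shape olfactory sensory neurons), fell by 0.76 ± 0.15 (SE; edgeR adjusted p = 2.07e-05) on the log2 scale after activation in MB131, from 21.0, 17.0 and 19.96 CPM to 11.5, 8.73 and 12.8. Its MB477 naive libraries stood at 52.4, 50.6 and 41.4, above all 27 others (8.73 to 28.5). CR43650, the host of mir-8 (a regulator of growth), held 549, 542 and 506 CPM in MB477 naive libraries, also above all others at 203 to 374. Without that group its changes with activation were 0.11 ± 0.05 in MB131, 0.15 ± 0.05 and 0.43 ± 0.05 with RNAi in MB131 and MB477, and 0.11 ± 0.05 without CsChrimson. Those with RNAi passed the test (edgeR adjusted p = 0.0141 and 4.75e-12). CR17025 (mir-252) went the other way, with 55.9, 54.4 and 56.6 CPM in MB477 naive libraries against 85.3 to 114 elsewhere.

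CR31451, the host of mir-9381, rose by 0.44 ± 0.12 (SE; edgeR adjusted p = 0.00962) without CsChrimson, from 995, 1198 and 1118 to 1484, 1516 and 1411 CPM, while in MB131 the difference was 0.04 ± 0.12 (SE; edgeR adjusted p = 0.869). The interaction between those backgrounds was -0.40 ± 0.17 (SE; edgeR adjusted p = 0.203) and did not pass. CR43459, the host of mir-34 (known for the ageing brain) and mir-277, passed the test in 1 of the 16 comparisons, activation in MB477 with RNAi, where it fell by 0.53 ± 0.16 (SE; edgeR adjusted p = 0.00618), from 17.4, 15.1 and 17.0 to 9.41, 12.5 and 10.4 CPM.

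**Figure D1:**
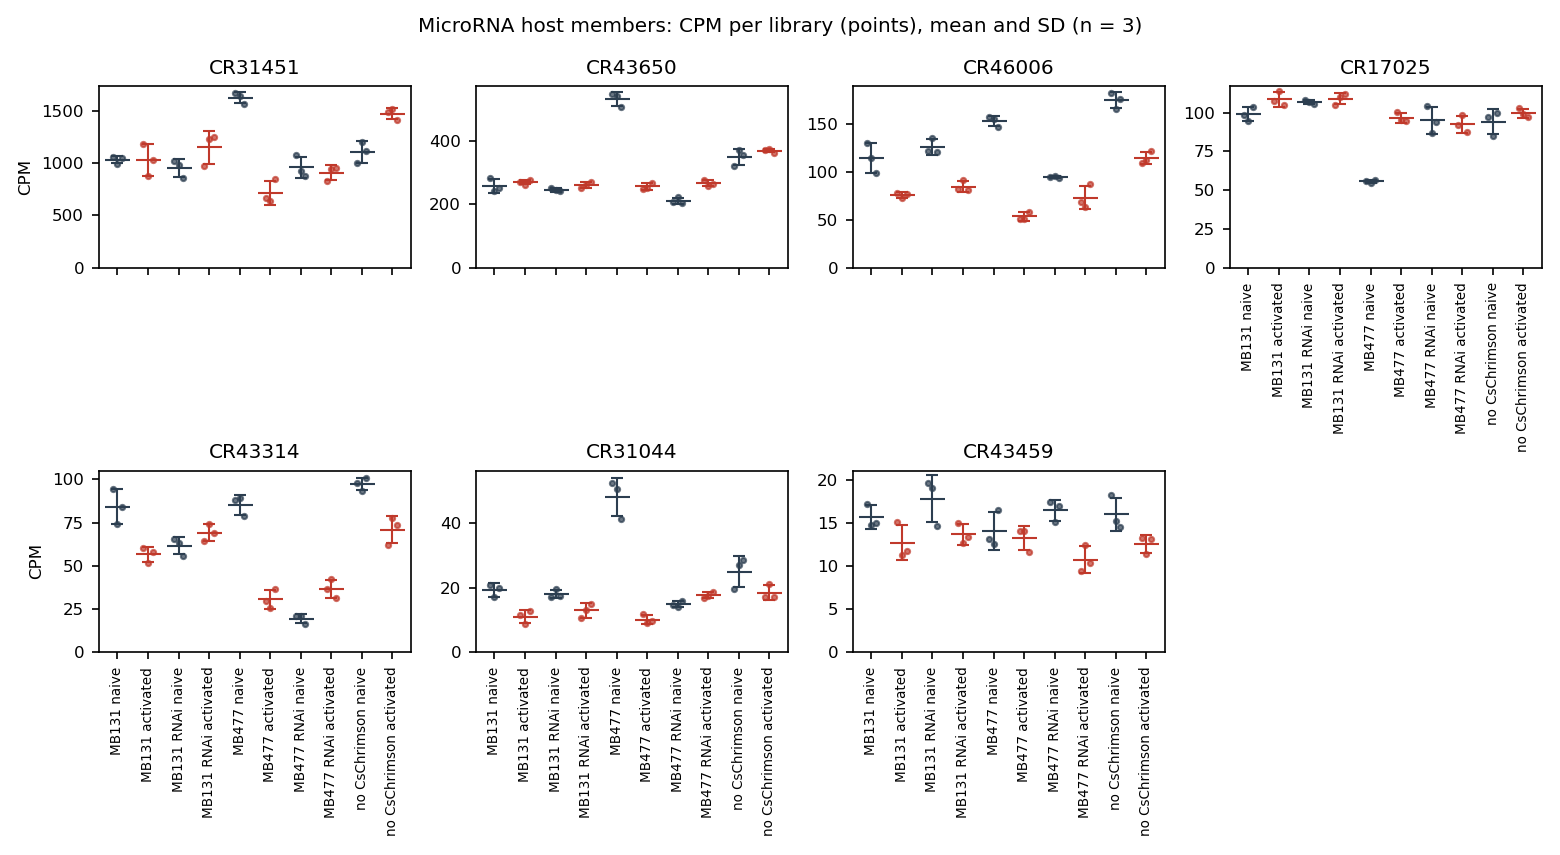
CPM of the 7 microRNA host genes in every library (points), by group, with the mean and SD of 3 libraries (bars); the vertical axes are linear and start at 0. Activated groups are red and naive groups dark. CR46006 is lower in the activated than in the naive libraries of each background, and CR43650 and CR31044 stand highest in the MB477 naive libraries (506 to 549 and 41.4 to 52.4 CPM).

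The first question of the design is what activation changes. In MB131, 85 of the 260 genes passed the test (27 higher, 58 lower), or 32.7%, against 24.5% of all genes tested (12.7% and 11.8% in those directions) and 33.1% of the other genes with a mean of 10 CPM or more. With RNAi in MB131 it was 105 (47 higher and 58 lower, where 26.8% of all genes passed, 13.8% and 13% by direction), with RNAi in MB477 99 (56 and 43, where 28.7% passed, 15.6% and 13.1%), and without CsChrimson 63 (21 and 42, where 21% passed, 11.1% and 9.98%). In MB477 195 genes passed (100 and 95, where 59.5% of all genes passed, 31.8% and 27.7%), a comparison that uses the naive libraries that lie apart. Shares of CR genes were thus near those of other genes with a mean of 10 CPM or more. For example, they were 24.2% against 28.7% without CsChrimson and 40.4% against 35.3% in MB131 with RNAi. The sets share the lower limit but were not matched in level. The median log2 change of the 260 genes in MB131 was -0.08, and that of all genes 0.00. The split depended on scaling: with library totals in place of TMM factors it was 29 higher and 69 lower in MB131 with RNAi, and 43 and 80 in MB477 with RNAi.

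**Figure D2:**
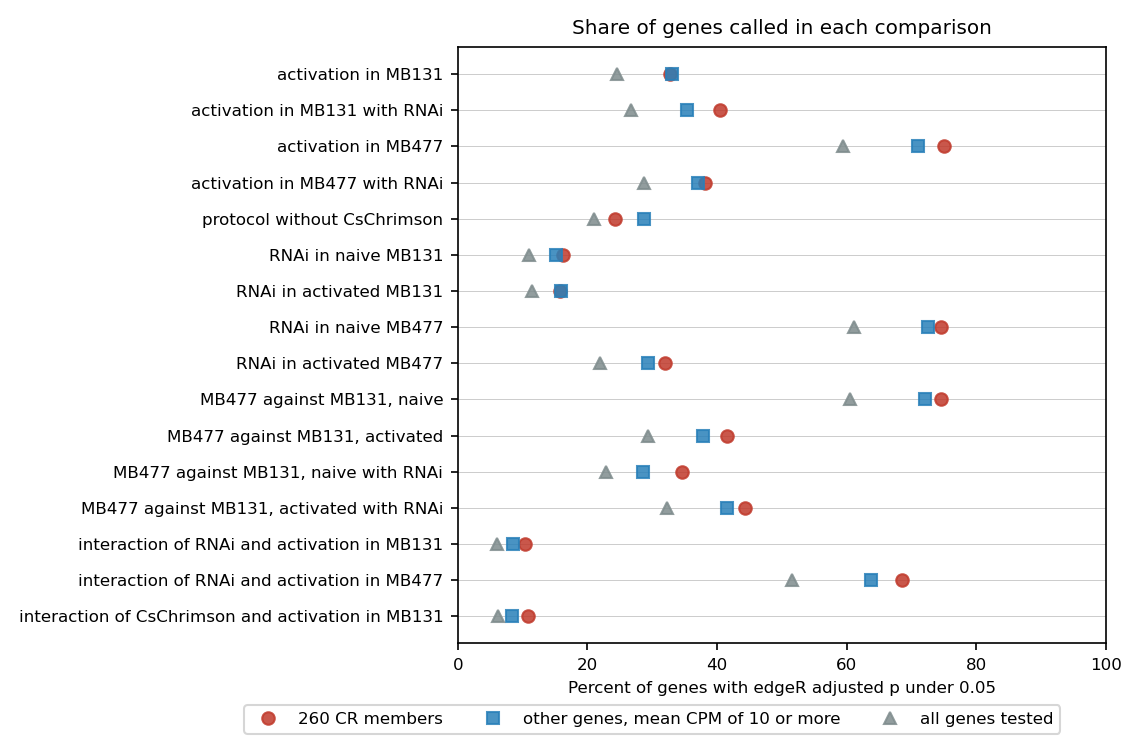
Percent of genes with an edgeR adjusted p under 0.05 in each of 16 comparisons, for the 260 CR genes (circles), other genes with a mean of 10 CPM or more (squares) and all genes tested (triangles). The circles stay close to the squares, for example 32.7% against 33.1% for activation in MB131, and the comparisons that use the MB477 naive libraries lie farthest to the right.

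Each activation comparison uses its own 6 libraries, and 18 genes passed in the same direction in all 5. Of these, 9 were higher in every one (2.41% of all genes were) and 9 lower (1.47%). Such shares, here and for the shared counts below, are over all genes tested, which include genes below 10 CPM. In MB131 24.5% of all genes tested passed but 33.1% of other genes with a mean of 10 CPM or more. The baseline is therefore unlike, and shared counts were not computed for genes above the limit. Leaving out the comparison with the MB477 naive libraries, the counts were 11 higher (3.12% of all genes) and 17 lower (2.38%). The 17 include CR45881, which is among the 260 only through naive groups where it is high, so its fall is a description. The comparison of flies without CsChrimson is among the 5, so the shared changes were also seen where the channel was absent.

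Among the 9 that rose, 8 are antisense, 7 of them with a matched partner, and 1 is a pseudogene. CR11538, opposite Lsp2 at 3L:12129103-12131488, minus strand, held 29.5, 27.9 and 30.2 CPM in MB131 naive and 63.7, 72.9 and 71.7 in activated libraries, a rise of 1.29 ± 0.08 (SE; edgeR adjusted p = 3.24e-28); Lsp2 rose by 1.33 ± 0.08. Without CsChrimson it went from 23.3, 27.3 and 20.1 to 47.3, 38.9 and 47.7 CPM, 0.95 ± 0.08 (SE; edgeR adjusted p = 1.74e-17). No naive library reached an activated one in either background. The 8 fat body markers present in the table, Lsp2 among them, moved too, as their summed level was 11754 to 12118 CPM in MB131 naive and 21839 to 23395 in activated libraries, but 11600.3 to 14485 and 10331 to 11975 without CsChrimson. Their part in the result was not tested.

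CR44108, opposite CG3011 (now Shmt, serine hydroxymethyltransferase), rose in MB131 from 9.24, 9.20 and 10.7 to 17.9, 20.5 and 19.4 CPM, by 1.03 ± 0.15 (SE; edgeR adjusted p = 1.39e-08), with CG3011 at 1.13 ± 0.06. The other 4 changes of CR44108 lay between 0.80 and 1.998. CR45814, opposite CG13926, rose in each background, from 0.94 in MB477 to 1.59 without CsChrimson on the log2 scale. There its libraries went from 4.35, 8.31 and 7.85 to 19.7, 17.9 and 22.2 CPM. CR44321 lies opposite the aldolase gene Ald (now Ald1) and rose by 0.65 ± 0.09 in MB131 and 0.28 ± 0.10 without CsChrimson, but by 3.08 ± 0.11 in MB477. That last value comes from 8.66, 8.90 and 9.41 CPM in MB477 naive libraries, against 26.1 to 46.6 in the other naive ones. With library totals in place of TMM factors, CR44321 was the 1 gene of these 9 that no longer passed in all 5.

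CR18228, an annotated pseudogene at 3R:8260706-8261898, minus strand beside RPA1 (replication protein A) and opposite mtg, went from 69.6, 72.8 and 61.0 to 91.5, 90.01 and 88.5 CPM in MB131 (0.45 ± 0.07) and from 42.5, 41.4 and 43.3 to 93.2, 89.5 and 88.3 in MB477 with RNAi (1.18 ± 0.08). CR45807 and CR45668, opposite CG13893 and CG16721, rose more where RNAi was present, CR45807 by 0.44 and 0.96 in MB131, and CR45668 by 0.36 and 0.66. The interaction of RNAi and activation in MB131 was 0.52 ± 0.10 (SE; edgeR adjusted p = 0.000133) for CR45807 and 0.30 ± 0.10 (SE; edgeR adjusted p = 0.0371) for CR45668, and in MB477, with the naive libraries that lie apart, 0.73 ± 0.11 and 0.71 ± 0.10. CR45604, which spans CG2061, CG2076 and the antiviral gene Vago on the other strand, rose by 0.33 to 0.66.

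Among the 9 that fell, 7 are antisense, 1 overlaps a gene on its own strand and 1 is the host CR46006. CR45024, a spliced gene opposite CG4000 at 3R:20677080-20677858, plus strand, held 294, 297 and 269 CPM in MB131 naive and 148, 160.5 and 155 in activated libraries, a change of -0.85 ± 0.05 (SE; edgeR adjusted p = 5.6e-26). Without CsChrimson it went from 289.6, 268 and 300.1 to 201, 218 and 224, -0.38 ± 0.05 (SE; edgeR adjusted p = 4.1e-09). Groups did not overlap in either background, and the interaction between them was -0.46 ± 0.08 (SE; edgeR adjusted p = 2.14e-06). CG4000 changed by -1.04 ± 0.08 and -0.48 ± 0.08.

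CR45327, by contrast, moved apart from its partner. It lies opposite Rtf1 (a subunit of the Paf1 transcription elongation complex) at 2R:22378263-22379007, minus strand, with 29.8% of its exon bases opposite exons of any gene. CR45327 fell in MB131 from 43.8, 42.9 and 31.8 to 20.3, 20.5 and 19.4 CPM, by 0.93 ± 0.12 (SE; edgeR adjusted p = 1.27e-10), while Rtf1 was at -0.03 ± 0.09 (SE; edgeR adjusted p = 0.864). Without CsChrimson the values were 50.1, 45.8 and 47.1 and 22.8, 20.3 and 25.7, -1.03 ± 0.12 (SE; edgeR adjusted p = 2e-12), with Rtf1 at 0.16 ± 0.09 (SE; edgeR adjusted p = 0.226). All activated libraries lay below all naive ones in both.

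CR44644 and CR44645 are antisense to each other at 2R:20505895-20506395, minus strand and 2R:20506195-20506895, plus strand, beside the odorant-binding protein gene Obp57a. In MB131 CR44644 went from 26.4, 35.6 and 25.8 to 15.3, 11.3 and 15.4 CPM and CR44645 from 42.7, 43.2 and 43.8 to 20.7, 19.7 and 21.7. Both fell in every background, -0.76 to -1.01 for the first and -0.72 to -1.21 for the second. CR45535, opposite CG2256, fell by 0.70 to 1.17, and CR45185, opposite the chitinase gene Cht6, by 0.30 to 1.03 on the log2 scale. CR43906, which overlaps cin (molybdenum cofactor synthesis) on the same strand, fell by 0.23 to 0.55.

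**Figure D3:**
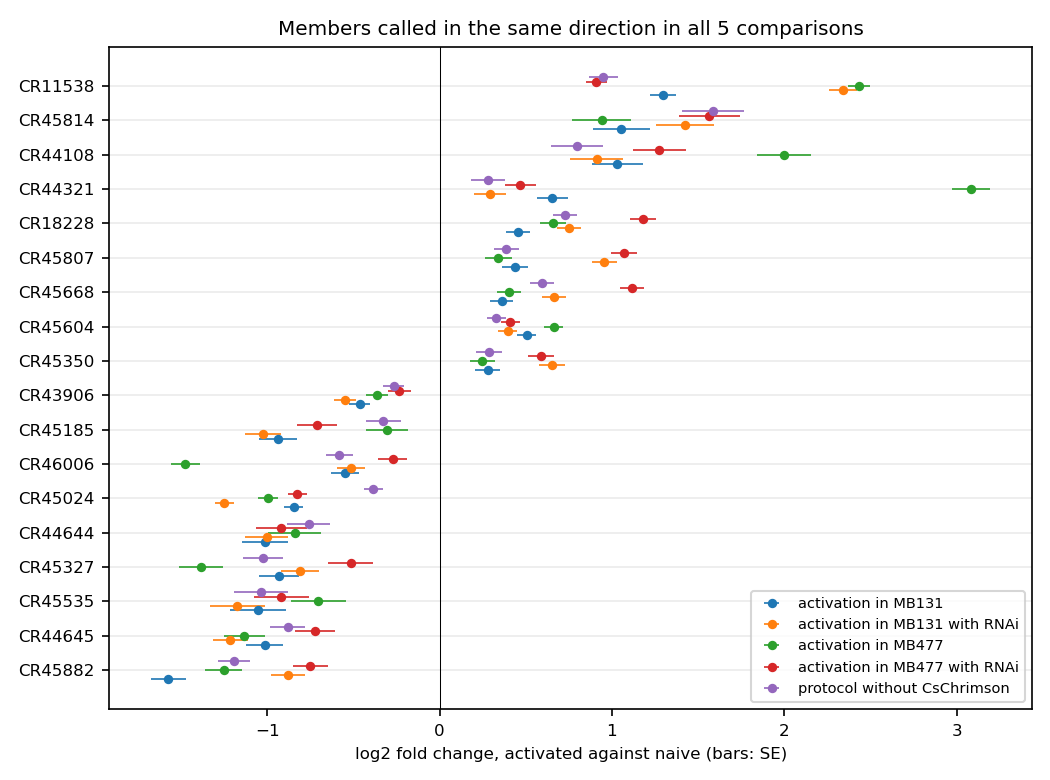
Log2 fold change of activated against naive libraries (horizontal axis; bars are SE) for the 18 CR genes that passed the test in the same direction in all 5 comparisons, coloured by comparison. The 9 genes that rose and the 9 that fell lie on either side of 0 in every background, and CR44321 and CR11538 have their highest values in MB477 (3.08 and 2.43), whose naive libraries lie apart.

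The 4 neighbouring genes CR45880, CR45881, CR45882 and CR45883 lie within CG32085 on 3L, between 11666319 and 11668877. In MB131, CR45882 dropped from 59.9, 63.2 and 65.6 to 19.4, 23.3 and 18.9 CPM, -1.57 ± 0.10 (SE; edgeR adjusted p = 5.91e-26), and the other 3 by -1.38 ± 0.14, -1.53 ± 0.19 and -1.72 ± 0.13 in that order. Without CsChrimson, CR45882 went from 95.0, 83.0 and 90.5 to 33.2, 39.8 and 42.0 and changed by -1.19 ± 0.09 (SE; edgeR adjusted p = 2.21e-20), while the others changed by -1.30, -1.46 and -1.24. CG32085 itself changed by -0.48 ± 0.07 and -0.58 ± 0.07 on the log2 scale. With RNAi in MB131 the 4 fell by 0.87, 0.93, 0.88 and 0.84. The interaction of RNAi and activation was 0.69 ± 0.14 (SE; edgeR adjusted p = 0.000178) for CR45882 and 0.89 ± 0.19 (SE; edgeR adjusted p = 0.000427) for CR45883. CR45880 and CR45883 overlap each other on opposite strands, so these are not 4 independent measurements, and CR45881 is among the 260 only through the naive groups where it is high, so its values are a description. In MB477, whose naive libraries lie apart, CR45882 fell (-1.25), CR45881 and CR45883 rose (0.94 and 0.38), and CR45880 was at 0.05 ± 0.17 (SE; edgeR adjusted p = 0.808).

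CR45601, wholly opposite Yp1 at X:10054235-10055109, minus strand, rose with activation in all 4 backgrounds with CsChrimson and fell without it. It held 3815, 3922 and 3841 CPM in MB131 naive and 6935, 7190.3 and 7314 in activated libraries, 0.93 ± 0.04 (SE; edgeR adjusted p = 9.58e-31). Without CsChrimson the values were 3709, 4516 and 4047 and 3722, 3444 and 3226, -0.21 ± 0.04 (SE; edgeR adjusted p = 2.74e-05). The groups overlap without CsChrimson and do not in MB131. The interaction was 1.14 ± 0.06 (SE; edgeR adjusted p = 2.6e-26), and for Yp1 1.18 ± 0.06. The line of the flies without CsChrimson is not named, so the channel and a line difference cannot be told apart. The summed fat body markers, Yp1 among them, moved in the same way (values above), and their part was not tested. CR44509, opposite Obp56e, rose by 0.31 ± 0.08 in MB131 and fell by 0.54 ± 0.08 without CsChrimson, with an interaction of 0.85 ± 0.11 (SE; edgeR adjusted p = 1.65e-05).

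Photoreceptor markers also moved with activation: all 17 rose in flies without CsChrimson and 16 of 17 in MB131, and their summed level went from 18058 to 18605 CPM in MB131 naive libraries to 27063 to 27386 in activated ones. Of 14 Kenyon cell markers, 0 were higher and 9 lower in MB131, 1 and 11 in MB477 with RNAi, and 7 and 2 without CsChrimson. Of 11 muscle markers, 0 were higher and 9 lower in MB131, 0 and 11 in MB131 with RNAi, 11 and 0 in MB477 with RNAi, and 0 and 9 without CsChrimson. The part of these cells in the changes of the CR genes was not tested.

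Outside the shared set, CR45955, opposite CG32444, rose in MB131 with RNAi from 3.31, 3.37 and 3.93 to 7.77, 9.003 and 11.7 CPM, by 1.49 ± 0.19 (SE; edgeR adjusted p = 2.38e-10), with CG32444 at 1.48 ± 0.09. CR43454, opposite the sodium/proton exchanger gene Nha2, fell in MB131 from 20.9, 16.8 and 16.3 to 7.77, 8.36 and 8.90 CPM, by 1.06 ± 0.16 (SE; edgeR adjusted p = 1.72e-08), and in MB477 with RNAi by 0.97, where Nha2 was at -0.14 ± 0.06 (SE; edgeR adjusted p = 0.0755). Both pairs of groups were without overlap in MB131. CR43417, opposite CG5550, rose in MB477 with RNAi from 15.98, 16.5 and 17.8 to 36.9, 36.1 and 34.7 CPM, 1.19 ± 0.12 (SE; edgeR adjusted p = 4.48e-15), and CR46065, opposite yellow-h on chromosome 4, fell there by 1.06. CR43452, beside CG4000 and near CR45024, fell in MB131 with RNAi by 1.07, and CR44054, which overlaps CDK2AP1 on its own strand, rose in MB131 by 0.81. CR45237, between genes, rose in MB477 with RNAi from 3.32, 5.98 and 3.76 to 13.9, 17.0 and 14.6 CPM, by 1.91 ± 0.18 (SE; edgeR adjusted p = 3.59e-16).

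Comparing antisense genes with their partners, changes after activation went together. Of 187 pairs with both genes tested, the sign was the same in 141 in MB131, 157 with RNAi, 148 in MB477 with RNAi, 153 without CsChrimson and 138 in MB477. Pearson's r across the pairs, which share libraries and possibly reads, was 0.85, 0.89, 0.83, 0.87 and 0.48 in the same order. Where the CR gene was called in MB131, the partner was called in the same direction for 42, in the opposite direction for 2, and not called for 14.

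Those 2 exceptions were CR45131 and CR46008. CR45131, opposite CG43340 on 2R, went from 119, 131 and 121 CPM to 89.0, 88.6 and 86.1, -0.45 ± 0.07 (SE; edgeR adjusted p = 1.28e-07), while CG43340 (now M7BP) was at 0.17 ± 0.04 (SE; edgeR adjusted p = 0.00021). With RNAi the pair again differed, at -0.36 and 0.22. CR46008 lies opposite pros (prospero, a transcription factor of neural differentiation), with 9.51% of its exon bases opposite exons of any gene. It changed by -0.33 ± 0.10 (SE; edgeR adjusted p = 0.00988) and pros by 0.11 ± 0.04 (SE; edgeR adjusted p = 0.0289). Both exceptions were picked out after their values were seen.

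**Figure D4:**
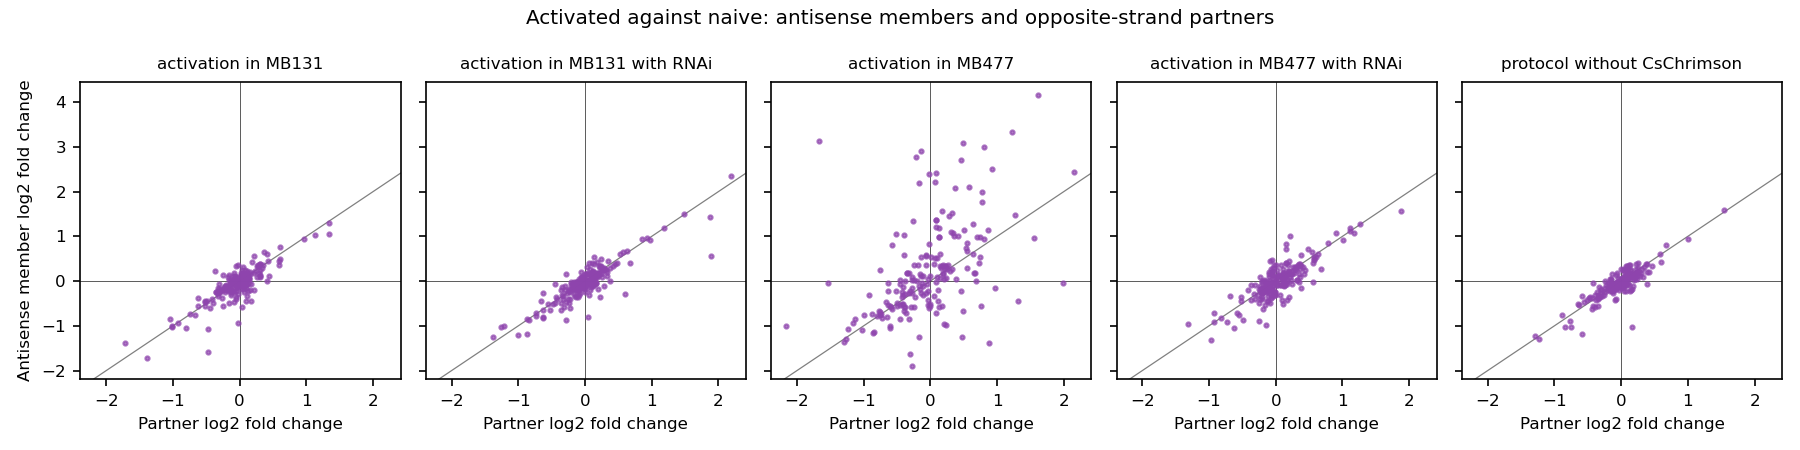
Log2 fold change of 187 antisense CR genes (vertical) against that of the opposite-strand partner (horizontal), one panel for each of 5 comparisons of activated with naive libraries; the diagonal marks equal change. Points lie along the diagonal in 4 panels (r = 0.83 to 0.89) and scatter in MB477 (r = 0.48), whose naive libraries lie apart.

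The next question is what RNAi against Kdm4B changes. In naive MB131 flies 42 genes passed (21 higher and 21 lower, where 11% of all genes passed, 4.92% and 6.12% by direction), and in activated ones 41 (28 and 13, where 11.5% passed, 5.84% and 5.65%). That last count fell whichever single library was left out, to between 26 and 33, and was lowest without MB131 activated replicate 3. In activated MB477 flies 83 passed (61 and 22, where 21.9% passed, 11.9% and 10%), and in naive ones, against the libraries that lie apart, 194 (105 and 89, where 61.1% passed, 30.6% and 30.5%). The shares of CR genes were 16.2%, 15.8%, 31.9% and 74.6% in that order. Of other genes with a mean of 10 CPM or more, 15.1%, 15.9%, 29.3% and 72.5% passed. Only 5 genes passed in the same direction in all 4: 4 higher (0.602% of all genes) and 1 lower (0.751%). Without the naive MB477 comparison there were 6 higher (0.873%) and 1 lower (1%). All 11 muscle markers present were lower with RNAi in activated MB131 and naive MB477 flies, 10 in naive MB131 and 9 in activated MB477. Their summed level was 5739 to 5804 CPM in activated MB131 libraries and 3049.7 to 3329 with RNAi. Of 14 Kenyon cell markers, 11 were higher and 0 lower in activated MB477, 12 and 2 in naive MB477, 6 and 0 in activated MB131, and 0 and 3 in naive MB131. Of 17 photoreceptor markers, 1 was higher and 10 lower in naive and in activated MB131, 0 and 9 in activated MB477, and 11 and 5 in naive MB477. The part of these cells in the changes was not tested.

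CR43767, opposite Tango14 at 2L:1158576-1159355, minus strand, separated the RNAi libraries from all others. Naive MB131 flies held 15.7, 18.7 and 14.7 CPM without RNAi and 34.1, 33.6 and 37.7 with it, 1.09 ± 0.13 (SE; edgeR adjusted p = 3.13e-11). Activated MB131 flies held 14.6, 15.2 and 15.4 and 30.3, 24.6 and 25.9, 0.85 ± 0.13 (SE; edgeR adjusted p = 1.23e-07). In MB477 the changes were 1.07 ± 0.13 naive, against the libraries that lie apart, and 1.11 ± 0.13 activated. The 12 RNAi libraries lay at 24.6 to 37.8 CPM and the 18 others at 10.9 to 18.7, with no overlap. Tango14 changed by 0.61 ± 0.10 and 0.73 ± 0.10 in MB131 and 0.26 ± 0.10 and 0.56 ± 0.10 in MB477.

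CR45712, opposite CG15353 at 2L:2006867-2007688, plus strand, was the 1 gene lower with RNAi in all 4. It held 47.8, 40.9 and 62.4 CPM in naive MB131 libraries and 28.6, 16.5 and 19.1 with RNAi, -1.24 ± 0.14 (SE; edgeR adjusted p = 3.77e-09). Activated libraries held 36.9, 39.2 and 37.2 and 11.1, 9.78 and 13.5, -1.70 ± 0.15 (SE; edgeR adjusted p = 2.35e-12). In activated MB477 flies the difference was -0.47 ± 0.16 (SE; edgeR adjusted p = 0.0225). Flies without CsChrimson, which carry no RNAi per the labels, lay at 20.8 to 30.3 CPM, which overlaps the RNAi libraries at 9.78 to 28.6. CG15353 changed by -1.67 ± 0.14 and -1.68 ± 0.15 in MB131.

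CR46074, CR43361 and CR44644 were the other genes higher in all 4 comparisons. CR46074, inside CG13795 on the opposite strand, changed by 0.65 ± 0.14 and 0.76 ± 0.14 in MB131 and 0.39 ± 0.14 in activated MB477 flies. Against the MB477 naive libraries the change was 0.56 ± 0.15. CR43361, an annotated pseudogene inside unc-13 (a synaptic vesicle priming factor) on chromosome 4, rose from 50.2, 44.7 and 44.7 to 67.5, 69.7 and 66.4 CPM in activated MB131 libraries, by 0.55 ± 0.08 (SE; edgeR adjusted p = 1.38e-08). CR44644, the gene that fell after activation, rose with RNAi by 0.43 to 0.50, but in the fit with no filter on low counts it no longer passed in all 4. CR44850, opposite l(2)34Fc, rose in the 3 comparisons without the MB477 naive libraries, by 0.85 ± 0.09, 0.77 ± 0.09 and 0.98 ± 0.10, and was at -0.13 ± 0.09 (SE; edgeR adjusted p = 0.199) in the naive MB477 comparison. Activated MB477 libraries of CR44850 held 25.3, 28.7 and 26.3 CPM and those with RNAi 59.2, 53.3 and 46.2.

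Single comparisons held other changes. CR43936, opposite CG31704, was lower with RNAi in naive MB131 libraries, at 3.63, 4.05 and 6.06 CPM against 10.4, 9.37 and 8.25, a change of -1.04 ± 0.20 (SE; edgeR adjusted p = 3.04e-05). CR44996, opposite CG7227, was lower with RNAi in activated MB477 libraries, at 10.4, 7.16 and 7.02 CPM against 19.1, 22.8 and 18.6, a change of -1.31 ± 0.18 (SE; edgeR adjusted p = 2.64e-09). These groups did not overlap, and the partners changed in the same direction, by -1.30 ± 0.16 for CG31704 and -1.65 ± 0.16 for CG7227. CR43170, an annotated pseudogene on 3L, was higher in activated MB477 libraries with RNAi, 20.3, 18.2 and 19.4 CPM against 7.94, 8.14 and 9.69, by 1.16 ± 0.15 (SE; edgeR adjusted p = 2.32e-10). CR43989, opposite CG32082 (now IRSp53), rose there by 0.83 ± 0.15, while CG32082 changed by 0.23 ± 0.04. CR31781 was lower with RNAi in activated MB131 libraries with a change of -0.58 ± 0.08 (SE; edgeR adjusted p = 2.77e-09), and CR45267 higher in naive ones by 0.55 ± 0.15 (SE; edgeR adjusted p = 0.0056).

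The lines differed from each other in every state. MB477 against MB131 gave 108 genes among activated flies (48 higher and 60 lower, where 29.3% of all genes passed, 14.4% and 14.8% by direction), 90 among naive flies with RNAi (33 and 57, where 22.8% passed, 11.2% and 11.6%) and 115 among activated flies with RNAi (63 and 52, where 32.2% passed, 16.6% and 15.6%). With library totals as scaling that last split was 47 and 63. Among naive flies it was 194 (80 and 114, where 60.5% passed, 29% and 31.6%). The shares of CR genes were 41.5%, 34.6%, 44.2% and 74.6% in that order. Of other genes with a mean of 10 CPM or more, 37.8%, 28.5%, 41.5% and 72.0% passed. In all 4 comparisons 22 genes were higher in MB477 (4.87% of all genes) and 25 lower (3.54%). Without the naive one they were 24 (5.49%) and 29 (4.63%). Both counts of higher genes include CR45955. That gene is among the 260 only through activated MB477, where it is high, so its part in them is a description.

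CR40469, a gene of 214 bases between genes at X:122493-122706, plus strand, was the clearest. It held 11.004, 10.5 and 14.0 CPM in activated MB131 and 99.1, 96.0 and 103 in activated MB477 libraries, 3.11 ± 0.09 (SE; edgeR adjusted p = 3.13e-52). With RNAi the naive values were 12.6, 15.2 and 12.8 and 157, 143 and 141, 3.46 ± 0.09 (SE; edgeR adjusted p = 1.06e-57). MB477 naive libraries were higher still, at 403, 357 and 349, and all flies without CsChrimson lay at 9.07 to 13.1. Every MB477 library was above every library of the other backgrounds (9.07 to 16.4 CPM). With activation the MB131 change was -0.22 ± 0.11 (SE; edgeR adjusted p = 0.154).

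CR45822, opposite CTCF (an insulator protein) at 3L:7355717-7356598, plus strand, was lower in MB477. Activated libraries held 28.7, 32.0 and 29.0 CPM in MB131 and 8.94, 7.98 and 9.20 in MB477, -1.73 ± 0.15 (SE; edgeR adjusted p = 1.7e-18), whereas CTCF differed by -0.55 ± 0.08. Flies without CsChrimson lay at 7.15 to 10.1, beside the MB477 libraries at 2.12 to 10.3 and below all MB131 ones at 28.7 to 33.8. CR43301, near drn on 3R, was lower in MB477 too (4.10 to 11.3 CPM against 12.6 to 26.2 in MB131), at -1.25 ± 0.17 (SE; edgeR adjusted p = 9.85e-10) in activated libraries, but there flies without CsChrimson lay at 19.4 to 27.6. CR11538 was higher in MB477, by 1.89 to 3.32 over the 3 comparisons without the MB477 naive libraries and by 1.76 with them, with Lsp2 at 2.76 ± 0.06 in activated libraries against 2.90 ± 0.06 for CR11538. Marker lists differed between the lines as well. Of 7 tested fat body markers, 6 were higher in MB477 among activated flies, in both RNAi states, and 7 among naive flies. Of 11 muscle markers, 10 were higher and none lower among activated flies, and 11 and 0 with RNAi. Among naive flies 9 were higher and 1 lower, but with RNAi 1 and 6. Of 14 Kenyon cell markers, 0 were higher and 14 lower among activated flies, and 0 and 11 with RNAi. Among naive flies 2 were higher and 12 lower, but with RNAi 3 and 3. Their part in the line differences was not tested.

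**Figure D5:**
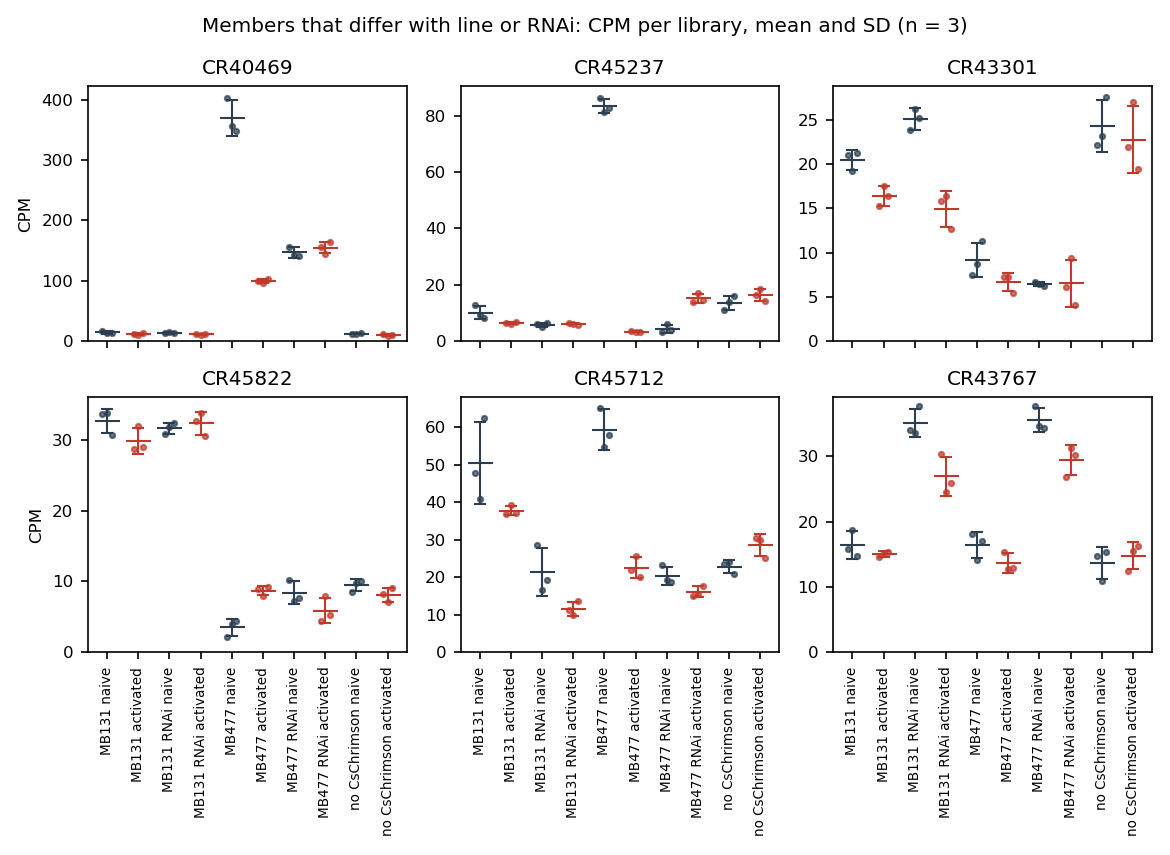
CPM per library (points) with the mean and SD of 3 libraries (bars) for 6 CR genes that differ with line or RNAi, by group; vertical axes are linear and start at 0, activated groups are red and naive groups dark. CR40469 is at 96.0 to 403 CPM in MB477 libraries, CR45822 at 28.7 to 33.8 CPM in MB131 libraries, and CR43767 is highest in the 4 RNAi groups (24.6 to 37.8 CPM).

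Some genes set the MB477 naive libraries apart from all other groups. CR31912, inside CG9171 on the opposite strand, held 0.577, 0.468 and 1.53 there and 12.1 to 23.6 elsewhere. CR46066, inside CG2225, held 1.15, 1.22 and 1.29 against 8.57 to 20.3. CR45896, opposite CG7546, held 1.64, 3.56 and 3.53 against 10.1 to 33.5, although CG7546 differed by only -0.25 ± 0.05 between the naive lines. In each case the MB477 naive group did not overlap the other 9. CR45237, between genes on 3L near Ten-m, held 86.3, 81.3 and 82.6 CPM there and 3.28 to 18.5 in the 27 others. It is among the 260 only through that group, so its high level there is part of how it was selected and is a description. Kenyon cell markers moved with this group, with a summed level of 3159 to 3192 CPM in MB477 naive against 5459 to 5730 in MB131 naive libraries, 12 of 14 markers lower and 2 higher. In activated MB477 libraries the sum was 3220.2 to 3372, although single markers moved: between naive and activated MB477 libraries 10 of the 14 were higher and 4 lower, with a median log2 change of 0.89. Their part in these levels was not tested.

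Of the 3 genes without an annotation entry, CR34335 held 1151, 1034 and 1015 CPM in MB477 naive libraries and 377 to 919 elsewhere, and CR43334 381, 363 and 361 against 80.2 to 276. CR43334 also fell with activation in MB131, from 255, 223 and 224 to 147, 124 and 133, by 0.75 ± 0.09 (SE; edgeR adjusted p = 2.93e-07) on the log2 scale, and was at -0.20 ± 0.09 (SE; edgeR adjusted p = 0.114) without CsChrimson. CR18854 varied little, with group means between 336 and 452 CPM.

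Whether RNAi alters the response to activation was tested as an interaction. In MB131 27 of the 260 genes passed (18 higher and 9 lower, where 6.06% of all genes passed, 3.26% and 2.79% by direction), and in MB477, with the naive libraries that lie apart, 178 (89 and 89, where 51.6% passed, 24.7% and 26.9%). The shares of CR genes were 10.4% and 68.5%, against 8.54% and 63.7% of other genes with a mean of 10 CPM or more. CR45018, which overlaps the inositol trisphosphate kinase gene IP3K2 on the same strand, held 15.5, 20.3 and 15.4 CPM in naive and 15.5, 13.3 and 17.6 in activated MB131 libraries, which overlap. With RNAi it went from 16.1, 14.6 and 19.5 to 27.5, 28.3 and 30.5, without overlap, and the interaction was 0.94 ± 0.19 (SE; edgeR adjusted p = 0.00017). CR45018 rose without CsChrimson as well, by 0.74 ± 0.14 (SE; edgeR adjusted p = 9.29e-06). Beside these interactions, 0 of 11 muscle markers were higher and 11 lower in MB131. Of 7 fat body markers 4 were higher and 0 lower, of 14 Kenyon cell markers 5 and 0, and of 17 photoreceptor markers 4 and 1. Their part was not tested.

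CR45046 overlaps fit, a fat body gene of female flies, on the same strand. With RNAi it fell on activation from 25.3, 21.8 and 24.4 to 7.28, 7.01 and 8.31 CPM in MB131, and without RNAi the values were 12.3, 15.6 and 13.5 and 10.4, 10.1 and 11.7. The interaction was -1.28 ± 0.22 (SE; edgeR adjusted p = 7.42e-06). CR44181, opposite CG7300, rose without RNAi from 100.2, 108 and 103 to 131, 134 and 125 and fell with it from 163, 157 and 136 to 115, 121 and 105, and the interaction was -0.73 ± 0.09 (SE; edgeR adjusted p = 2.89e-10), with CG7300 at -0.71 ± 0.09.

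The interaction of CsChrimson and activation, MB131 against flies without the channel, gave 28 genes (10 higher and 18 lower, where 6.23% of all genes passed, 2.7% and 3.53% by direction). The share among the 260 genes was 10.8%, and among other genes with a mean of 10 CPM or more it was 8.40%. As the line of the flies without the channel is not named, channel and line cannot be told apart here. Of 14 Kenyon cell markers 0 were higher and 10 lower in this interaction, and of 7 fat body markers 6 and 0. Of 17 photoreceptor markers 0 were higher and 7 lower, and of 11 muscle markers 2 and 2. Their part was not tested.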

How the data were processed

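Per the submitters' processing notes, the authors aligned reads with STAR to dm6 and counted them with HTSeq, with no versions given. Strand setting and treatment of multiply mapping reads are not stated there. The deposited table holds whole-number counts per gene, used as deposited. From these, edgeR 4.0.16 (R 4.3.3) was run on the 11457 of 17559 genes that met filterByExpr (minimum count 10, minimum total 15). One model held all 30 libraries with a mean per group and TMM factors. Each contrast got a two-sided quasi-likelihood F test, and p-values were adjusted by Benjamini and Hochberg's method across all these genes (threshold 0.05); "called" and "passed" refer to it. The SE is the absolute log2 change divided by the square root of F. The typical biological coefficient of variation was 6.32%, with 20 residual degrees of freedom. CPM use library totals and serve as levels, with SD over 3 libraries. No replicate pair agreed within sampling noise (chi-square per degree of freedom 2.84 to 6.9). Genes were placed with the Ensembl BDGP6 annotation (dm6 assembly); a partner is the most abundant gene in the table with an exon opposite the CR gene's.

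The genes, gene lists (Kenyon cell, photoreceptor, fat body and muscle markers) and tests were chosen with earlier results of these data known. The rule for named genes took the 10 with the highest mean CPM, the 3 just inside and 3 just outside the limit, those called alike in all activation, RNAi or line comparisons, the largest changes without group overlap per comparison (5 and 5, or 3 and 3 for lines and interactions, the latter without that condition), and the widest (10) and narrowest (5) ranges. Not all are printed, 1 result is not reported here, and the microRNA hosts, CR45131, CR46008 and, for lines, a selection were added or chosen with values in view. Alternatives were other scalings, no filter, DESeq2 1.42.0, a replicate block, only the compared groups, each library left out and, added after seeing the data, a fit without the MB477 naive libraries.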

Additional observations from a re-analysis of the deposited data

Results flagged for a closer look

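Interactions, which test whether an effect differs between backgrounds, passed for 27 CR genes (RNAi by activation in MB131), 178 (the same in MB477) and 28 (CsChrimson by activation in MB131), by edgeR's quasi-likelihood test. The MB477 count uses the naive libraries that lie apart, and the line of the flies without CsChrimson is not named, so channel and line cannot be told apart in the last. Of all genes tested, 6.06%, 51.6% and 6.23% passed these interactions in the order given. The shares were 10.4%, 68.5% and 10.8% of the CR genes. Among other genes with a mean of 10 CPM or more they were 8.54%, 63.7% and 8.40%. On the log2 scale, the largest RNAi interactions in MB131 were 1.05 for CR11538, 1.03 for CR45955 (opposite CG32444) and 0.94 for CR45018, and -1.28 for CR45046, -0.79 for CR45170 and -0.73 for CR44181. That of CR45955 did not pass without MB131 RNAi activated replicate 3 (adjusted p = 0.0541).

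In MB477 they were 6.503 for CR45237, 2.553 for CR31044 and 2.45 for CR43314, and -4.61 for CR31912, -3.79 for CR45896 and -3.74 for CR46066, all of them genes whose MB477 naive libraries differ from their MB477 RNAi naive ones. CR45237 is among the 260 only through its level in MB477 naive libraries, so its value there is a description. For CsChrimson in MB131 they were 1.14 for CR45601, 0.86 for CR45955 and 0.85 for CR44509, and -0.91 for CR45237, -0.83 for CR45018 and -0.80 for CR45225, which lies opposite Lgr3, a relaxin-type hormone receptor gene. CR45237 did not pass without MB131 naive replicate 1 (adjusted p = 0.0709), and CR45955 did not pass in 8 of the alternatives (adjusted p up to 0.111 by edgeR).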

How the results depend on the processing

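No result changed sign under any alternative tried. The 16 counts of called CR genes stayed within 1.5 times the main one in all settings but 1: RNAi in activated MB131 gave 41, and 26 without MB131 activated replicate 3 (26 to 33 over single libraries left out). Leaving out each library gave 73 to 80, 82 to 100, 182 to 190, 80 to 93 and 51 to 58 for activation (MB131, with RNAi, MB477, with RNAi, no CsChrimson), 33 to 40, 182 to 191 and 62 to 76 for RNAi in naive MB131, naive MB477 and activated MB477, and 186 to 193, 91 to 104, 76 to 88 and 99 to 109 for the lines (naive, activated, and both with RNAi); the interactions gave 21 to 29, 169 to 177 and 21 to 29. Replicate numbers do not pair the libraries (correlations of deviations -0.0317 to 0.055); with the replicate block the counts in the order of the design were 86, 105, 195, 98, 63, 42, 39, 194, 82, 195, 108, 88, 115, 25, 178 and 29. A fit without the MB477 naive libraries, chosen after seeing the data, gave 86, 106, 101 and 68 for activation (MB131, with RNAi, MB477 with RNAi, no CsChrimson), and its 8 other counts stayed within 1.5 times too. Of 132 single-gene results, 126 stayed on their side of the threshold in every setting; CR45046 and CR45170 with RNAi in activated MB131 and CR45822 with RNAi in activated MB477 (adjusted p up to 0.130) did not in some. For activation in MB131 the SE was 0.03 for CR42862 (16160 CPM) and 0.17 for CR45814 (14.3 CPM), but 0.12 for CR31451 (1094 CPM), so it did not simply follow the level.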
